A study of Homo sapiens with 6 samples.

Results

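The 10 genes of translesion synthesis described here are *POLH*, *POLI*, *POLK*, *REV1*, *REV3L*, *MAD2L2*, *POLQ*, *PRIMPOL*, *RAD18* and *HLTF*. They were chosen by name for their role in copying damaged DNA, with earlier results of these data known. Each of the 10 has a row of its own among the 27942 genes of the deposited table, and each passed the filter on low counts, as did 13727 genes in all. HCT116, the source of all libraries, is an established cell line from a human colorectal carcinoma that the study lists as wild-type for p53 and mutated in *CTNNB1*. Of the 6 RNA-seq libraries, 3 came from cells exposed to 0.5 µM oxaliplatin for 24 h (OXA) and 3 from cells that received no drug (NT), all in medium with serum and harvested below full confluence. No source used here says that the 3 libraries of a group came from separate cultures, so the p-values measure the spread between these libraries, which may be technical. Library totals lay between 32979521 and 40967880 counts, and NT library 1 stood apart from the other NT libraries, so results that turn on it are given without it as well.

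When a replicative polymerase meets a lesion it cannot copy, such as the crosslink that a platinum drug forms between neighbouring guanines, the cell can bring in a polymerase with a more open active site. Ubiquitin attached to the sliding clamp PCNA by RAD18 recruits the Y-family polymerases, which insert bases opposite the lesion, after which polymerase zeta extends the new strand. A cell can also restart synthesis beyond the lesion with the primase-polymerase PRIMPOL, or reverse the fork, for which HLTF is one of the remodelling enzymes.

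*POLH*, which encodes polymerase eta, rose to 2.10 times its NT level in OXA, whereas *POLQ*, which encodes polymerase theta, fell to 0.681 times its NT level. These were the only members with an edgeR adjusted p under 0.05, that is 1 of 10 higher and 1 of 10 lower, where 5.07% of all genes tested were called, 2.78% higher and 2.29% lower. At an unadjusted p under 0.05, 2 members were higher and 5 lower, where 21.7% of all genes passed in either direction. At an edgeR adjusted p under 0.05 and a fold over 1.5 *POLH* alone was left, where 1.97% of all genes were higher and 1.44% lower. *REV1*, *RAD18*, *HLTF* and *PRIMPOL* had estimates between 0.602 and 0.738 times the NT level and adjusted p-values between 0.0571 and 0.0648. *REV3L* had an estimate of 1.25 times the NT level. *POLI*, *POLK* and *MAD2L2* had overlapping groups. In 7 of the 10 members, 2 above and 5 below, every OXA library lay on the same side of every NT library, which was the case for 28.9% of all genes tested (14.5% above and 14.4% below). The median log2 fold change of the members was -0.29, against 0.023 over all genes tested.

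The replicate numbers of the labels matched libraries that deviated together, so a fit with the number as a block was made as well. With this replicate block 2 members were called higher (*POLH* and *REV3L*) and 5 lower (*POLQ*, *REV1*, *RAD18*, *HLTF* and *PRIMPOL*), where 12.1% of all genes tested were called higher and 10.9% lower. DESeq2 without a block called 1 member higher and the same 5 lower, where it called 4.48% of the genes it adjusted higher and 4.23% lower.

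**Figure D1:**
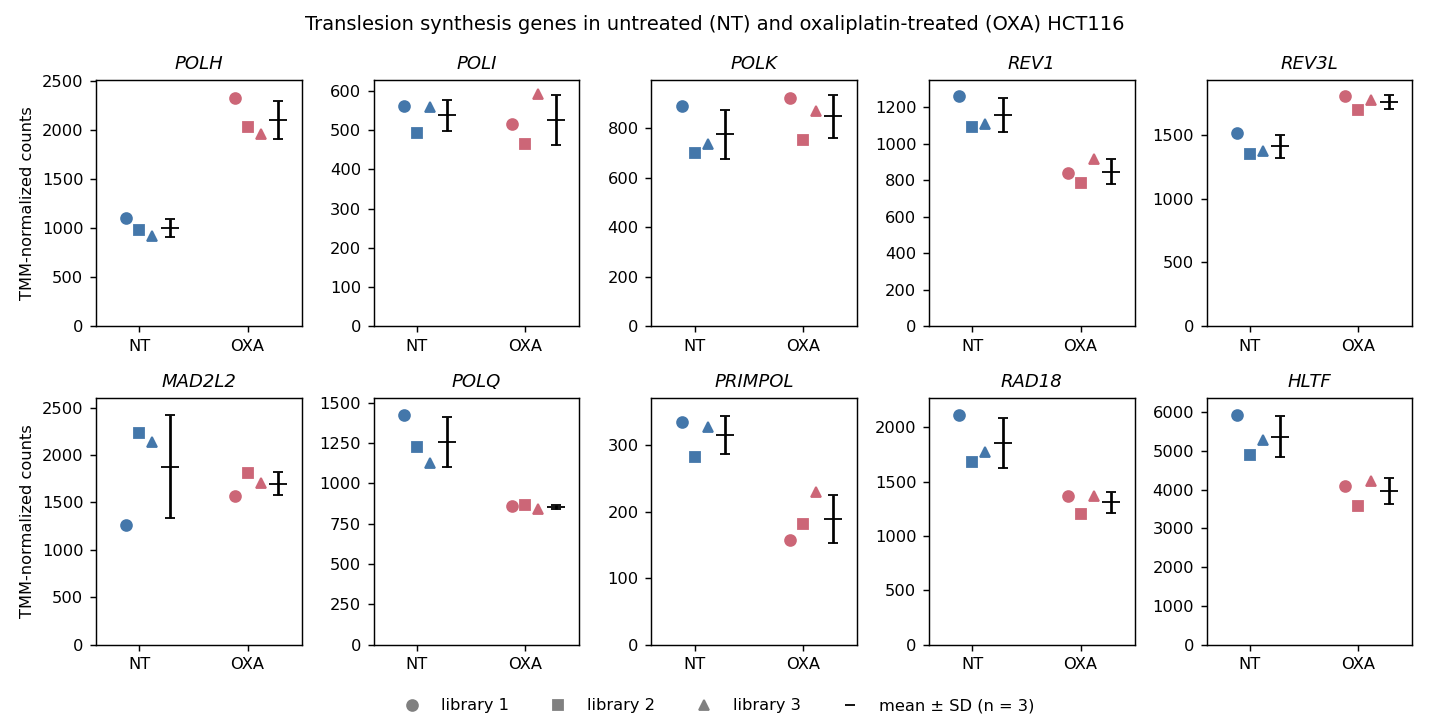
TMM-normalized counts (vertical axes, each from 0) of the 10 translesion synthesis genes in the NT and OXA libraries, with circles, squares and triangles for libraries 1, 2 and 3 and black bars for mean ± SD (n = 3). *POLH* and *REV3L* lie wholly higher in OXA, *REV1*, *POLQ*, *PRIMPOL*, *RAD18* and *HLTF* wholly lower, and NT library 1 stands apart for *MAD2L2*.

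**Figure D2:**
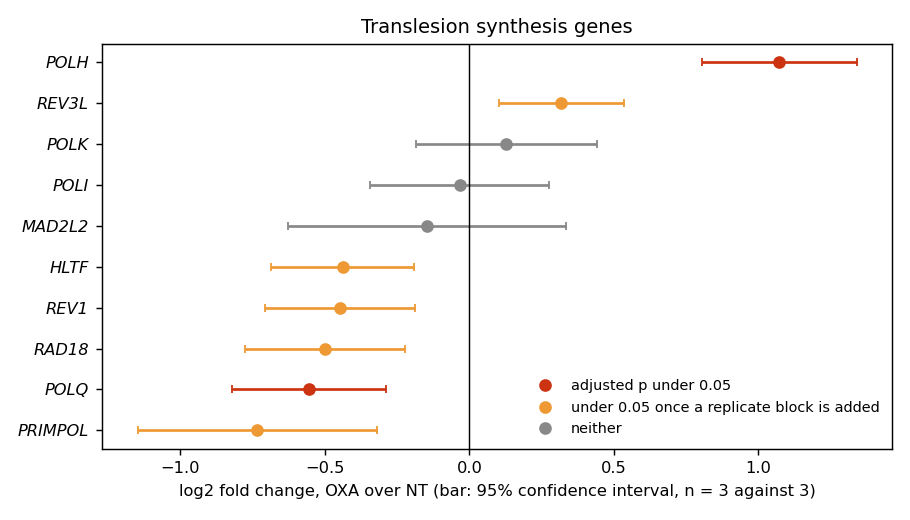
Log2 fold change of OXA over NT (horizontal axis) for each of the 10 genes, with 95% confidence intervals from edgeR's quasi-likelihood fit and colors for the calls without and with a replicate block. *POLH* stands at 1.07, and 5 genes have intervals that lie wholly below 0.

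Among the Y-family genes, *POLH* (ENSG00000170734, chromosome 6 of GRCh38 from 43576185 to 43620523, 11 exons in the canonical transcript) encodes the polymerase that copies past ultraviolet dimers and platinum crosslinks and is lost in the variant form of xeroderma pigmentosum, and it is an established target gene of p53. Its normalized counts were 1107, 979 and 919 in NT libraries 1 to 3 and 2324, 2034.5 and 1958 in OXA libraries 1 to 3. The lowest OXA library thus lay well above the highest NT library. The log2 fold change was 1.07 ± 0.12 SE (95% interval 0.80 to 1.34, edgeR adjusted p = 0.00451), and it ranked 52 by p-value among all genes tested. *POLH* was called in all 6 fits that each left out a library, at an edgeR adjusted p no higher than 0.0365, and the same-numbered libraries differed by 1.07, 1.06 and 1.09 on the log2 scale. In the same libraries the p53 targets *CDKN1A*, which encodes the cell cycle inhibitor p21, and *MDM2*, which encodes the ubiquitin ligase of p53, rose by log2 fold changes of 2.93 and 2.22 (edgeR adjusted p = 0.000445 for both). These 2 genes ranked 1 and 4 by p-value among all genes tested. The part of p53 in the rise of *POLH* was not tested.

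The start of *POLH* faces that of *XPO5*, a nuclear export gene on the opposite strand, and the stretch that separates their annotated exons is shown because both genes start from it, the called *POLH* and a neighbour that was not called. In lower case, since no searched motif lies in it, and on the strand of *POLH*, the 146 bases at chr6:43576039-43576184 (RefSeq, GRCh38.p14) read as follows.
POLH: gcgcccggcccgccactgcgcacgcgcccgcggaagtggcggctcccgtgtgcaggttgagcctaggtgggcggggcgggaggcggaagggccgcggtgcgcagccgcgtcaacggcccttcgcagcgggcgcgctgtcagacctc
The stretch has a GC content of 78.1%. *XPO5* averaged 5901 ± 560.5 normalized counts (SD over 3 libraries) in NT against 6267 ± 572 in OXA, with overlapping groups (log2 fold change 0.087 ± 0.11 SE, edgeR adjusted p = 0.700). *XPO5* and the other genes that border or overlap members were looked up after the members' values were known.

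*POLI* (chromosome 18 of GRCh38 from 54269517 to 54321266) encodes polymerase iota, a close relative of polymerase eta. It had 561, 493 and 559 normalized counts in NT and, with the drug, 517, 466 and 593, and the highest of the 6 values as well as the lowest was an OXA library. Its log2 fold change was -0.034 (95% interval -0.34 to 0.28, edgeR adjusted p = 0.915), and the sign turned to 0.046 without OXA library 2. *POLK* (chromosome 5 from 75511845 to 75609991), which encodes polymerase kappa, an enzyme known for extending mismatched ends and passing bulky adducts, had 889, 701 and 738 normalized counts in NT and, with the drug, 923, 752 and 871. The groups overlapped, and the log2 fold change was 0.13 (95% interval -0.18 to 0.44, edgeR adjusted p = 0.640). In log2 units the intervals leave room for a change down to -0.34 for *POLI* and up to 0.44 for *POLK*. Neither leaves room for one of the size seen in *POLH*.

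*REV1* (chromosome 2 of GRCh38 from 99400475 to 99490035) encodes a deoxycytidyl transferase that also serves as the platform on which the other Y-family polymerases and polymerase zeta meet. Its normalized counts were 1261, 1093 and 1109 in NT and 840, 782 and 916 in OXA, so that each OXA library lay below each NT library. The log2 fold change was -0.45 ± 0.11 SE (edgeR adjusted p = 0.0648), and with the replicate block the edgeR adjusted p was 0.0186. The block call was lost when the authors' factors were used as well (edgeR adjusted p = 0.0984). Exons of *REV1* share 852 of their 7769 bases with *EIF5B* on the opposite strand, a far more abundant gene with 12163 ± 1982 normalized counts in NT and 12715 ± 789 in OXA. The strand setting of the authors' counting is not given in the sources used here, so reads of the shared stretch cannot be assigned, and their part in the *REV1* counts was not tested.

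Counts were scaled to the length of the canonical transcript to compare levels between the Y-family genes. *POLH* took 23.9%, 24.5% and 22.5% of the summed level of the 4 genes in NT and, in OXA, 46.0%, 45.3% and 40%. *REV1* took 48.2%, 48.4% and 48.1% in NT and 29.4%, 30.8% and 33.1% in OXA, so the gene with the largest share was *REV1* in every NT library and *POLH* in every OXA library. The size of these shares depends on the transcript lengths used, 8368 bases for *POLH* and 4731 for *REV1*. A share also falls when another of the 4 genes rises. The summed level of the 4 genes was 553, 478 and 488 normalized counts per kilobase in NT and 604, 537 and 586 in OXA. A ratio of 2 genes within a library does not depend on how libraries are scaled. The ratio of *POLH* to *REV1* raw counts was 0.878, 0.895 and 0.829 in NT and 2.77, 2.60 and 2.14 in OXA, a 2.87-fold difference. The ratio to *POLI* differed 2.16-fold and that to *POLK* 1.92-fold, with no overlap between the groups. In an exact permutation test over the 6 libraries (two-sided), each of the 3 ratios had p = 0.1, also after adjustment over the 3, which is the smallest p that this design allows.

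**Figure D3:**
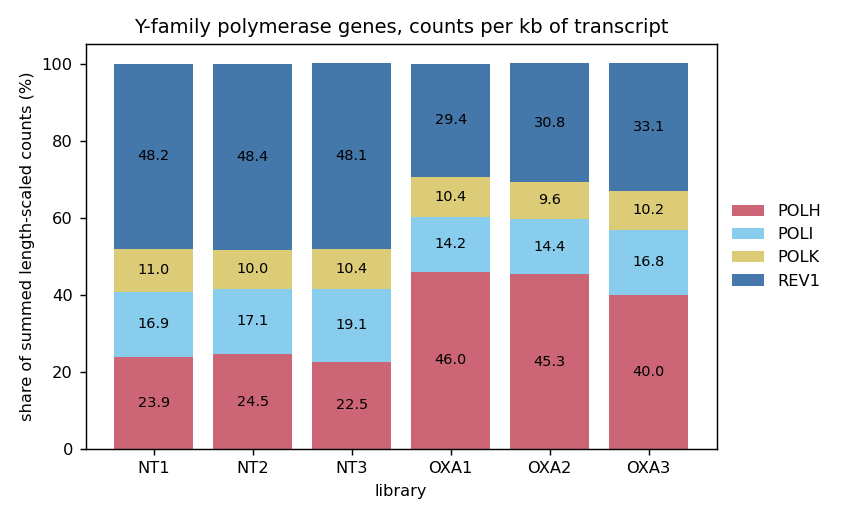
Share of the summed counts per kilobase of transcript (vertical axis, percent) that each Y-family gene took in each of the 6 libraries (horizontal axis), printed inside the stacked bars. The *POLH* share lies between 22.5% and 24.5% in NT and between 40% and 46.0% in OXA.

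Of the subunits of polymerase zeta, the enzyme that extends from the inserted base, 2 are encoded by members. *REV3L*, which encodes the catalytic subunit (chromosome 6 of GRCh38 from 111299028 to 111483715), had 1514, 1350 and 1370 normalized counts in NT and, with the drug, 1808, 1699 and 1774. All OXA libraries were above all NT libraries, with a log2 fold change of 0.32 ± 0.093 SE (edgeR adjusted p = 0.0950). With the replicate block the edgeR adjusted p was 0.0185, and without NT library 1 it was 0.0411. The other fits that each left out a library did not call *REV3L*, with an edgeR adjusted p up to 0.313. It was not called by DESeq2 (adjusted p = 0.127) or with the authors' factors (edgeR adjusted p = 0.167). With these factors and the replicate block the edgeR adjusted p was 0.0294. *MAD2L2* (chromosome 1 from 11658918 to 11691811), which encodes REV7, the subunit that links REV3L to REV1 and is also part of the shieldin complex, had 1258, 2236 and 2143 normalized counts in NT and, with the drug, 1571, 1812 and 1709. NT library 1 held the lowest value and the other NT libraries the highest values, so that the OXA libraries fell in between (log2 fold change -0.15 ± 0.21 SE, edgeR adjusted p = 0.737). Without NT library 1 the log2 fold change was -0.37, with an edgeR adjusted p of 0.0503.

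The low *MAD2L2* value went with the base composition of its transcript. With a GC content of 60.2%, it was the most GC-rich of the members, the others lying between 36.2% and 46.2%. Over the 2159 tested genes with a GC content of 60% or more, the median deviation from the group mean was -0.61 in NT library 1, 0.39 in NT library 2 and 0.23 in NT library 3, on the log2 scale. *MAD2L2* deviated by -0.53, 0.30 and 0.24 in the same libraries. Over the 2216 genes under 40%, NT library 1 deviated by 0.15 in the other direction, which is the side on which 9 of the 10 members lay in that library. In OXA libraries 1, 2 and 3 the median of the genes at 60% or more was -0.22, 0.25 and -0.026. *MAD2L2* deviated by -0.11, 0.097 and 0.012 in these OXA libraries. For libraries 1 and 2 the median thus lay on the same side in both groups. The part of base composition in the members' fold changes, or in same-numbered libraries deviating together, was not tested. *MAD2L2* exons also share 16.1% of their bases with *FBXO6* on the opposite strand (log2 fold change 0.38, edgeR adjusted p = 0.342, with overlapping groups), and those of *POLH* 3.1% with *GTPBP2* (log2 fold change -0.036, edgeR adjusted p = 0.915).

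**Figure D4:**
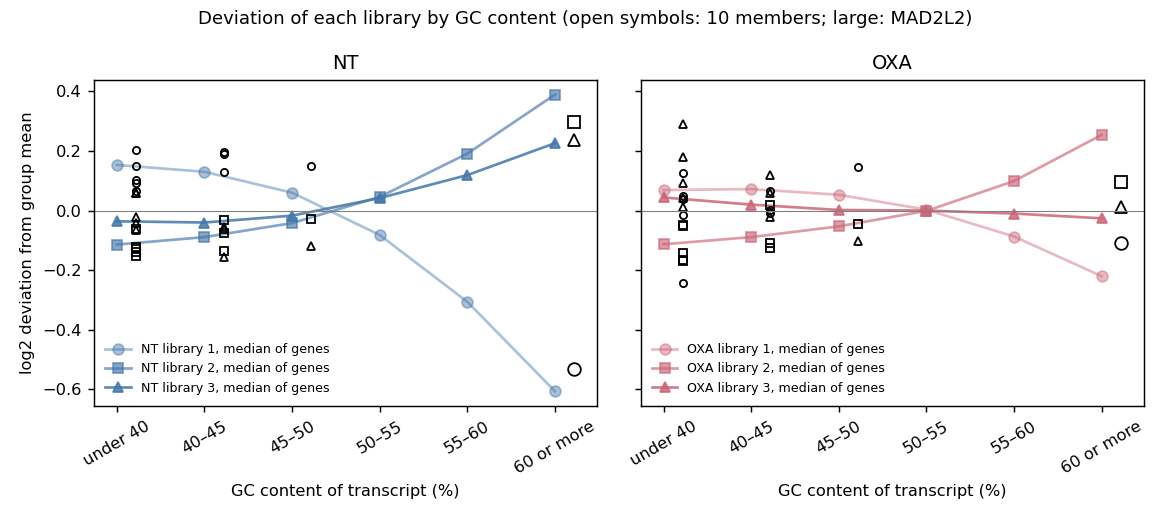
Log2 deviation from the group mean (vertical axes) against the GC content of the transcript in percent (horizontal axes), as the median of the tested genes in each class (lines, 1 per library) and for the 10 members (open symbols, large for *MAD2L2*). NT library 1 drops to -0.61 in the class of 60% or more, where *MAD2L2* lies at -0.53. In the same class OXA libraries 1, 2 and 3 lie at -0.22, 0.25 and -0.026.

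Of the subunits that polymerase zeta shares with the replicative polymerase delta, *POLD3* fell, from 1123 ± 162 normalized counts in NT to 718 ± 66.5 in OXA (log2 fold change -0.65 ± 0.14 SE, edgeR adjusted p = 0.0423). *POLD2* had 5964 ± 1126 and 6920 ± 940 normalized counts, with overlapping groups (log2 fold change 0.21, edgeR adjusted p = 0.488).

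*POLQ* (ENSG00000051341, chromosome 3 of GRCh38 from 121431431 to 121545988) encodes polymerase theta, an A-family enzyme known for joining broken ends through short repeats and able to pass some lesions. It had 1425, 1222 and 1122.5 normalized counts in NT and, with the drug, 857, 867 and 842. The OXA libraries were nearly level and all lay below the lowest NT library. The log2 fold change was -0.55 ± 0.12 SE (95% interval -0.82 to -0.29, edgeR adjusted p = 0.0391). This call was kept in only 1 of the 6 fits that each left out a library, the fit without NT library 1 (edgeR adjusted p = 0.0234), and reached an edgeR adjusted p of 0.167 in the others. The authors' own factors, taken as the ratio of their normalized to their raw counts, differ between genes as well as libraries. With these factors the log2 fold change of *POLQ* was -0.53 and the edgeR adjusted p 0.0919. With the factors and the replicate block the edgeR adjusted p was 0.0291.

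*PRIMPOL* (chromosome 4, 184649667 to 184694963, GRCh38), which encodes the enzyme that reprimes synthesis beyond a lesion, was the least counted member, with 335, 283 and 328 normalized counts in NT and, with the drug, 158, 181 and 229. The highest OXA library lay below the lowest NT library. The log2 fold change of -0.73 was the lowest of the members but had a wide interval, from -1.15 to -0.32 (edgeR adjusted p = 0.0599, and 0.0204 with the replicate block). *PRIMPOL* exons share 18.6% of their bases with *CENPU*, a centromere gene on the opposite strand. *CENPU* fell from 1276 ± 100.01 to 722 ± 58.5 normalized counts (log2 fold change -0.82 ± 0.11 SE, edgeR adjusted p = 0.010), and it was counted more often than *PRIMPOL* in every library. Whether *CENPU* reads entered the *PRIMPOL* counts was not tested.

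Of the ubiquitin ligases of PCNA, 2 are members. *RAD18* (chromosome 3 of GRCh38 from 8775402 to 8963773) encodes the ligase that attaches the first ubiquitin and thereby calls in the Y-family polymerases. Its normalized counts were 2114, 1677 and 1769 in NT and 1368, 1199 and 1363 in OXA, with no overlap (log2 fold change -0.50 ± 0.12 SE, edgeR adjusted p = 0.0571, and 0.00919 with the replicate block). Without NT library 1 its log2 fold change was -0.39, and it was called (edgeR adjusted p = 0.0452). The other fits that each left out a library did not call *RAD18*, with an edgeR adjusted p up to 0.214. *HLTF* (chromosome 3 from 149030127 to 149086554) encodes a ligase that extends the ubiquitin chain and a fork remodeller. It was the most counted member, with 5935, 4898 and 5269 normalized counts in NT and, with the drug, 4086, 3579.5 and 4215. Again each OXA library was below each NT library (log2 fold change -0.44 ± 0.11 SE, edgeR adjusted p = 0.0605, and 0.00796 with the replicate block). *HLTF* exons share 27.4% of their bases with *GYG1* on the opposite strand, which averaged 1689 ± 243 normalized counts in NT against 1745 ± 240.3 in OXA (log2 fold change 0.047, edgeR adjusted p = 0.891). The groups of *GYG1* overlapped, and whether *GYG1* reads entered the *HLTF* counts was not tested. Since RNA was taken from whole cultures, fewer cells that express a gene and less RNA per cell cannot be told apart for any of these genes.

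Promoters were searched on both strands for a p53 decamer, one arm of the p53 site, for the core of an E2F site (TTTCCCGC, TTTCGCGC, TTTGCCGC or TTTGGCGC) and for the CCAAT box (CCAAT), in RefSeq windows from 250 bases before to 50 after each start. These motifs do not overlap each other in the windows of the members. Of the members, all 10 had a window and 2 of them had 2, which gave 12 windows. The p53 decamer was in 0 of the 12 windows, *POLH* included, and in 6.63% of the 35116 windows of all genes. With 12 windows, 0 cannot be set apart from that share. Sites outside the windows, and sites that depart from the decamer, were not searched for. An E2F core was found in a window of *HLTF*, *REV3L* and *POLI*, that is 3 of 12, against 3.31% of all windows. A CCAAT box was found for *HLTF* and *MAD2L2*, against 34.6% of all windows. The upstream stretch of *HLTF*, the member with both motifs, is shown with the E2F core and, on the opposite strand, the CCAAT box in capitals. It covers chr3:149086555-149086783 (RefSeq, GRCh38.p14, strand of *HLTF*) and lies in no annotated exon.
HLTF: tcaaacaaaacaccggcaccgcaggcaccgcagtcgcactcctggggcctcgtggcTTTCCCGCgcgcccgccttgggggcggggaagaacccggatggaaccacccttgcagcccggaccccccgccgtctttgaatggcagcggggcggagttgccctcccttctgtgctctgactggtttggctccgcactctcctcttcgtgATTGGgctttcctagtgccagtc
The 3 genes with an E2F core did not share a direction, with log2 fold changes of -0.44 for *HLTF*, 0.32 for *REV3L* and -0.034 for *POLI*.

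Per kilobase of canonical transcript, the untreated cells held most of *MAD2L2* (1785 ± 512 normalized counts per kilobase) and *HLTF* (1009 ± 98.8), then *RAD18* (316 ± 39.3) and *REV1* (244 ± 19.7). *PRIMPOL*, *POLQ*, *REV3L* and *POLH* followed between 146 and 120, and each of these overlapped the next in its NT libraries. *POLI* (89.3 ± 6.49) and *POLK* (53.1 ± 6.81) came last, so that the members ranged from percentile 21.9 to percentile 89.9 of the tested genes. In OXA, *POLH* ranked 3 of 10 at 252 ± 23.0 normalized counts per kilobase, above *RAD18* (224 ± 16.4) and *REV1* (179 ± 14.3). These levels depend on the transcript that is used, since *POLK*, for example, has a canonical transcript of 14623 bases and *MAD2L2* one of 1053.

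A list of 29 genes that act with the members, also chosen with earlier results of these data known, was examined next. PCNA itself, the clamp that is ubiquitinated, averaged 10080 ± 813 normalized counts in NT against 9768 ± 629 in OXA (log2 fold change -0.045, 95% interval -0.27 to 0.18, edgeR adjusted p = 0.830). All 29 genes passed the filter, 4 fell and 0 rose by edgeR (7 lower and 1 higher at an unadjusted p under 0.05), where over all genes tested 2.29% were called lower and 2.78% higher (11.1% and 10.7% at the unadjusted p). The median log2 fold change was -0.095. With the replicate block 8 were called lower and 1 higher, where 10.9% and 12.1% of all genes were. By DESeq2, 6 were lower and 0 higher, where 4.23% and 4.48% of the genes it adjusted were.

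Of the 12 genes for ubiquitination of PCNA and its reversal, 3 fell. *DTL*, which encodes the substrate receptor of a ubiquitin ligase that acts on chromatin-bound PCNA, had 4821, 3718 and 3725 normalized counts in NT and, with the drug, 2255, 1820 and 2204, so that the groups were far apart. Its log2 fold change was -0.97 ± 0.14 SE (edgeR adjusted p = 0.0112), the lowest of the list. *ATAD5*, whose product unloads PCNA, fell from 731 ± 73.7 to 438 ± 67.2 normalized counts (log2 fold change -0.74 ± 0.15 SE, edgeR adjusted p = 0.0370). *RFWD3*, which encodes a ligase for the single-strand binding protein RPA, fell from 6797 ± 618 to 4973 ± 361 (log2 fold change -0.45 ± 0.10 SE, edgeR adjusted p = 0.0483). *DTL* was called in 3 of the 6 fits that left out a library, while *ATAD5*, *RFWD3* and *POLD3* were called only in the fit without NT library 1.

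*USP1*, which encodes the protease that removes ubiquitin from PCNA, had 3439 ± 487 and 2382 ± 202 normalized counts (log2 fold change -0.53, edgeR adjusted p = 0.0539, 0.00958 with the replicate block and 0.0408 without NT library 1). The other fits that each left out a library did not call *USP1*, with an edgeR adjusted p up to 0.204. *WDR48*, the partner of *USP1*, had overlapping groups (log2 fold change -0.099, edgeR adjusted p = 0.646). For *PCLAF*, a PCNA-binding protein gene, the log2 fold change was -0.64 (edgeR adjusted p = 0.0957, and 0.00421 with the replicate block). The conjugating enzymes that work with RAD18, *UBE2A* and *UBE2B*, and those of the chain-extending branch, *UBE2N* and *UBE2V2*, had log2 fold changes between -0.14 and -0.050 and overlapping groups. *SHPRH*, a ligase gene related to *HLTF*, had 629 ± 76.2 and 599 ± 57.3 normalized counts and did not pass the test (log2 fold change -0.071, edgeR adjusted p = 0.811).

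Of the 5 partner genes of *MAD2L2*, 0 passed the test by edgeR or DESeq2 (1 lower at an unadjusted p under 0.05, *CHAMP1*), and the shieldin genes *SHLD1*, *SHLD2* and *SHLD3* had log2 fold changes between -0.14 and -0.095. *TRIP13* and *CHAMP1* were called lower with the replicate block (edgeR adjusted p = 0.0366 and 0.0470, log2 fold change -0.24 in both). *POLDIP2*, whose product binds PRIMPOL and polymerase eta, was the only gene of the list whose OXA libraries all lay above its NT libraries, with 4335 ± 348 and 5160 ± 312 normalized counts (log2 fold change 0.25, edgeR adjusted p = 0.176, and 0.0244 with the replicate block). The fork remodelling genes *ZRANB3* (636 ± 93.8 and 533 ± 16.7 normalized counts, log2 fold change -0.26, edgeR adjusted p = 0.331) and *SMARCAL1* (log2 fold change 0.18, edgeR adjusted p = 0.487) had overlapping groups. The other repair polymerase genes *POLB*, *POLL*, *POLM* and *POLN* and the helicase gene *HELQ* had overlapping groups.

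**Figure D5:**
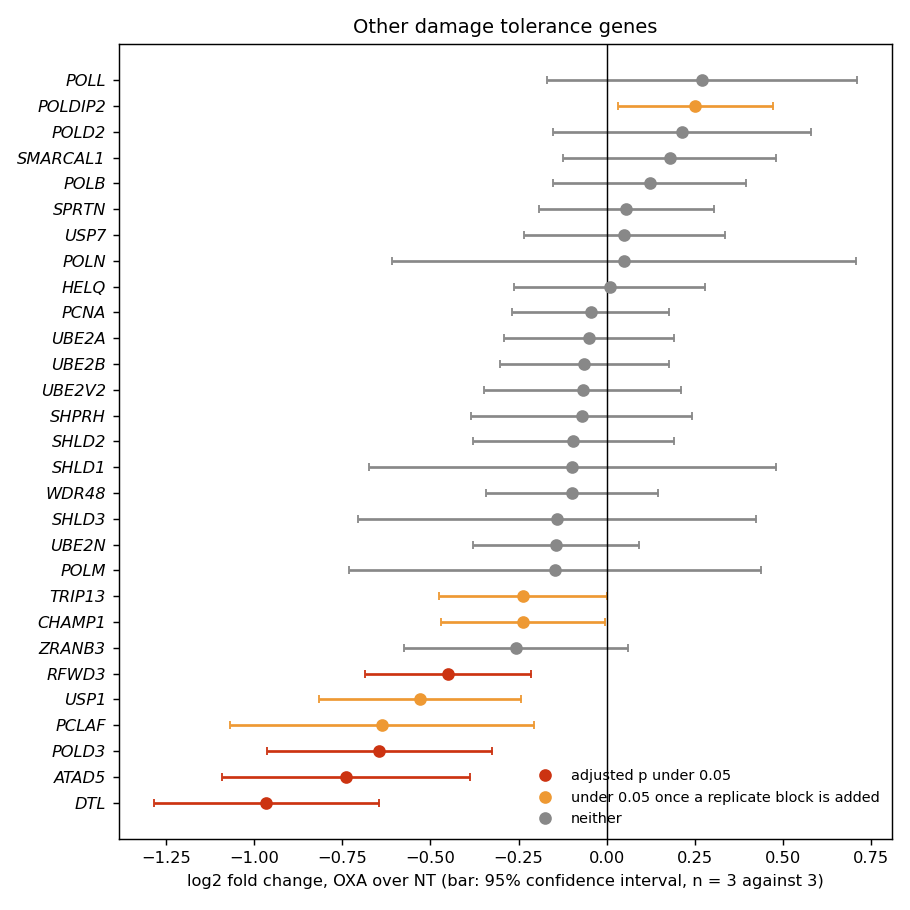
Log2 fold change of OXA over NT (horizontal axis) for the 29 other damage tolerance genes, with 95% confidence intervals and colors for the calls as in the plot of the members. *DTL*, *ATAD5*, *POLD3* and *RFWD3* lie below 0 past the threshold, and most of the others have intervals that include 0.

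The 8 S-phase genes taken for comparison (*MCM2*, *MCM4*, *MCM5*, *MCM6*, *CDC6*, *CDC45*, *RRM2* and *E2F1*) had log2 fold changes between -1.10 and -0.35. *MCM4*, *MCM6*, *CDC6* and *E2F1* were called lower, where 2.29% of all genes tested were. With the replicate block all 8 were called lower, where 10.9% of all genes were. They are given beside the members and the list because they moved in the same libraries, so their calls are not independent of that choice. The part of these S-phase genes in the lower counts of *POLQ*, *PRIMPOL*, *RAD18*, *HLTF* and *REV1* was not tested. Of the epithelial markers, *EPCAM* had between 9083 and 11069 normalized counts in the 6 libraries and *KRT8* between 27627 and 61780, while *KRT20* and *VIL1* stayed under 100. Of the 7 leukocyte, fibroblast and endothelial markers, 5 did not pass the filter on low counts. The leukocyte marker *PTPRC* had at most 2.18 normalized counts and the fibroblast marker *DCN* had 0 raw counts in all 6 libraries, although *COL1A1* had between 109 and 284 normalized counts.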

How the data were processed

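RNA-seq libraries of HCT116 cells (3 NT, 3 OXA) were grouped and numbered by the sample labels. The authors deposited raw counts per gene and library, made from reads mapped to GRCh38 with STAR 2.7.5b. The submitters' processing notes also name Trimmomatic 0.32, RSEM 1.3.3 and DESeq2 2.13. The annotation and strand setting of the counting are not given in the sources used here. The deposited table also holds the authors' normalized signal, whose ratio to the raw count differed between genes as well as libraries. This ratio is what is called the authors' factors here, and it was used only for alternatives. How the authors obtained it per gene is not stated in the sources used here.

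Raw counts were filtered with filterByExpr (minimum count 10, minimum total 15), normalized by TMM and tested with edgeR's quasi-likelihood test (R 4.3.3 with DESeq2 1.42.0, edgeR 4.0.16 and limma 3.58.1). P-values were adjusted by Benjamini-Hochberg over the 13727 tested genes, with a call at an adjusted p under 0.05. The steps were tested on simulated counts of independent libraries with the same dispersion for every gene. The simulation held no same-numbered libraries deviating together, no GC-dependent deviation and no library standing apart. It therefore does not check the calls under those features. Normalized counts are TMM-normalized. Standard errors are the estimate over the square root of F. Counting error is smaller than the spread between libraries. No library repeated another (chi-square per gene of 19.2 to 83.1 for pairs within a group), and NT library 1 stood farthest from the others. Same-numbered libraries deviated together (correlation across genes 0.51, 0.50 and 0.28, against -0.44 to 0.083 for other pairs), and this is why the replicate block is given. What a number stands for is not stated.

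Gene positions, transcript lengths and GC content (known for 99.6% of tested genes) came from GENCODE release 44 on GRCh38, and promoter windows from RefSeq on GRCh38.p14. The members and lists were chosen with earlier results of these data known. Named are all members, the genes of the list of 29 that were called and the 6 others with the smallest p, and comparison genes. Genes bordering members, and further genes of the list, were named after their values were seen.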

Additional observations from a re-analysis of the deposited data

How the results depend on the processing

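The rise of *POLH* was called by every fit that tested for a difference, with log2 fold changes from 0.98 to 1.15, and the differences in its ratios to *POLI*, *POLK* and *REV1* kept their direction throughout, between 0.88 and 1.63. By the test against a 1.5-fold change, 0 members were higher and 0 lower, 0 genes of the wider list were lower, and 41 genes in all were higher and 9 lower. With the replicate block 2 members were higher and 5 lower, 1 wider gene was higher and 8 lower, and 1664 of all genes were higher and 1493 lower. With the block and the authors' gene-specific factors these numbers were 2 and 4 for members (*REV1* being the one lost), 7 lower for the wider list, and 1319 and 1167 for all genes. With the authors' factors and no block, 0 members and 2 wider genes were lower, and 241 of all genes were higher and 200 lower. DESeq2 called 5 members lower, and 604 of all genes higher and 571 lower. Members called lower were 5 with upper quartile factors, 5 with library totals only, 2 without a filter on low counts, 4 with at least 1 CPM in 3 libraries and 0 once a fold over 1.5 was required. Of the 13727 genes tested, the lower calls were 493 with upper quartile factors, 511 with library totals and 198 with the fold cutoff. Without a filter 347 of the 19353 genes with at least 1 count were called lower. With the CPM filter 479 were, among a set of genes whose size is not given here. With 1 library left out at a time, between 1 and 2 members were higher (2 without NT library 1) and between 0 and 2 lower (2 without NT library 1 and 0 in the other 5 fits). For the wider list between 0 and 5 were lower, and for all genes between 66 and 623 higher and between 19 and 571 lower, the highest counts without NT library 1 and the lowest without OXA library 1. *POLI* changed its sign to 0.016 with the authors' factors, to 0.020 with these and the replicate block, and to 0.046 without OXA library 2, with a lowest value of -0.16 without OXA library 3. The cause of these differences was not tested. The other scalings moved the median of all genes by less than 0.1 in log2 units.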

Other observations

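The 3 tested genes whose values over the 6 libraries were most like those of *POLH*, by the root mean square difference of mean-centred log2 values, were *PSTPIP2* (0.031), *COL12A1* (0.057), which encodes a collagen chain, and *F5* (0.069), which encodes coagulation factor V. Their log2 fold changes were 1.04, 1.08 and 1.00. For *POLQ* they were *REEP1* (0.037), *OTULINL* (0.044) and *LONRF1* (0.045), with log2 fold changes between -0.61 and -0.58. The search took genes averaging 50 normalized counts or more, and likeness over 6 libraries of 2 groups rests largely on the difference between the groups.

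The 5 members with lower counts also shared an order among the same-numbered pairs. *POLQ* differed by -0.73, -0.50 and -0.41 in pairs 1, 2 and 3 on the log2 scale, *PRIMPOL* by -1.09, -0.64 and -0.52, *RAD18* by -0.63, -0.48 and -0.38, *HLTF* by -0.54, -0.45 and -0.32, and *REV1* by -0.59, -0.48 and -0.28. Pair 1 thus had the largest difference and pair 3 the smallest in each of the 5, whereas *POLH* differed by 1.07, 1.06 and 1.09. The order was not particular to them, since *DTL* (-1.10, -1.03 and -0.76), *USP1* (-0.72, -0.48 and -0.38), *RFWD3* and the S-phase genes *MCM6*, *CDC6* and *RRM2* had it as well. Nor was it general among genes with lower counts. *ATAD5* (-0.80, -0.88 and -0.57) and the S-phase genes *MCM4* (-0.84, -0.89 and -0.74), *E2F1* (-1.07, -1.19 and -1.04), *CDC45*, *MCM2* and *MCM5* did not have it. The share of all tested genes with this order was not counted, and the part of base composition in it was not tested. The numbers only name the pairs.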
